A study of Mus musculus with 6 samples.

Results

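The genes described here encode 10 endothelial proteins: Pecam1, Cdh5, Tek, Tie1, Emcn, Cldn5, Esam, Egfl7, Robo4 and Eng. These are proteins of the cell surface and cell junctions, apart from Egfl7, which is secreted. The genes were taken by name, and every probe set whose platform annotation names one of them and no other gene was used. All 10 were measured, by 15 of the 34945 probe sets assigned to 1 gene only, which cover 18193 genes. A probe set is a group of short array probes for one transcript or set of transcripts.

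The study profiled mouse cells sorted by flow cytometry at embryonic day 9 on 6 Affymetrix arrays, 3 labelled wild type and 3 labelled mutant. The sorted cells carried YFP from the Rosa locus, switched on by Isl1-cre, which marks the Isl1 lineage: precursors of much of the heart and of part of its endocardium and vessels, among others. Mutant embryos carried Isl1-cre, Rosa-YFP and a Beta-catenin allele with exon 3 between loxP sites, so that the Cre yields a stabilised β-catenin in the same cells. The labels give no alleles for the wild-type embryos beyond the YFP used to sort them, and they do not say how many embryos made up a sample, so the p-values reflect only how far these samples spread.

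Endothelial cells line blood vessels, and endocardial cells, which are of the same kind, line the heart. They hold together through adherens junctions, built on the cadherin Cdh5 (VE-cadherin), whose tail binds β-catenin, and through tight junctions, in which Cldn5 (claudin-5) and Esam lie. Pecam1 (CD31) is a homophilic adhesion molecule at the same contacts. Tek (Tie2) is the receptor tyrosine kinase for the angiopoietins, and Tie1 is the related receptor that partners with it. Eng (endoglin) is a coreceptor for TGF-β family ligands, Robo4 an endothelial member of the roundabout receptors, Emcn (endomucin) a mucin-like surface protein and Egfl7 a secreted protein of the endothelial matrix.

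Values are log2 expression values as deposited, and differences are mutant minus wild type, with standard errors (SE) and adjusted p-values from limma fitted over all 18193 genes. Depth has no counterpart on arrays, and the number of arrays limits the precision. The arrays correlated at 0.979 to 0.989 across genes, and the first principal component placed mutant replicate 1 (1.21) between the wild-type arrays (−21.6 to −20.5) and the other mutant arrays (29.4 and 33.0). The mean of 3 Y-linked genes differed between arrays of wild type, at 9.08, 3.33 and 3.43 for replicates 1, 2 and 3, and was 8.09, 9.12 and 8.33 in mutant cells. Xist read 5.46, 12.63 and 12.79 in wild type and 12.13, 7.54 and 12.44 in mutant cells. Mutant replicates 1 and 3 thus read high for both. The Y-linked mean was low only on wild-type replicates 2 and 3, so it is partly confounded with group. A fit with it as a covariate leans on wild-type replicate 1.

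The sample titles call the cells cardiac progenitors and do not name endothelial cells. Markers of both were read. All 14 endothelial markers listed had means over the 6 arrays above the background level of 4.85, a rough level set by bacterial control probe sets. As 10 of the 14 are the genes described here, this is not an independent check. Of the cardiac progenitor markers 11 of 12 were measured, and 1 of them, Nkx2-5, had a mean at or below background. Isl1, which defines the lineage, read 9.24, 9.36 and 9.77 on wild-type and 8.72, 8.61 and 7.49 on mutant arrays.

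All 10 genes had higher mean values in mutant than in wild-type cells, by 0.045 (Eng) to 1.14 (Pecam1), and none of these differences passed the test. By the brightest probe set of each gene, Pecam1, Robo4, Tie1, Esam and Cdh5 differed by 0.60 or more and Egfl7 by 0.43. Emcn, Cldn5, Tek and Eng differed by 0.14 or less. For Pecam1, Robo4, Tie1, Esam and Cdh5, each mutant array lay above each wild-type array. The dimmer Eng probe set differed by 0.29, between these sets of genes, and the dimmer Cdh5 probe set by 0.46. The limma intervals also overlapped, with that of Tek reaching 0.72 and that of Cdh5 starting at 0.049. A split of the genes by size of difference was not tested. Over all genes 44.7% had a higher mean in mutant cells, and the median difference was −0.03, against 0.52 for the 10 genes.

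Limma called 12 of the 18193 genes higher (0.066%) and 0 lower (0%), none of them among the 10. At an unadjusted p under 0.05 there were 5 of the 10 genes, all higher, where 6.76% of all genes were higher at that level. Groups did not overlap, with the mutant arrays higher, for 5 of the 10 genes and 8.64% of all genes. They did not overlap with the mutant arrays lower for 0 of the 10 genes and 9.18% of all genes. These counts are a description, since the genes were chosen with earlier results of these data known. The 10 genes also moved together by array, with wild-type array 3 the lowest of its group for all 10, so they are not independent observations. In these sorted but mixed cells, more endothelial cells and more of each transcript per endothelial cell cannot be told apart.

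**Figure D1:**
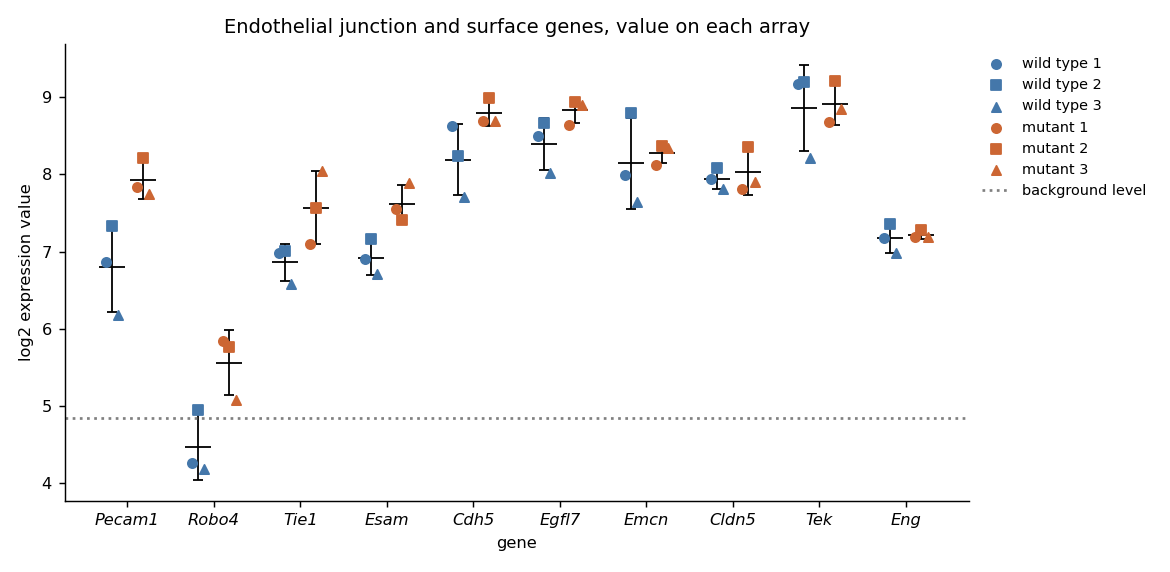
Log2 expression value (y axis) of the 10 genes (x axis) on each array, with wild-type arrays in blue and mutant arrays in orange; marker shape gives the replicate, and bars give the mean ± SD of 3 arrays. The groups are apart for Pecam1, Robo4, Tie1, Esam and Cdh5, and overlap for the other 5; the dotted line is the background level of 4.85.

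Among the junction proteins, Pecam1 had the largest difference of the 10. In wild type, replicates 1, 2 and 3 read 6.87, 7.33 and 6.18, and in mutant cells the corresponding values were 7.83, 8.21 and 7.74. The lowest mutant array therefore stood above the highest wild-type array. The means were 6.79 ± 0.58 and 7.93 ± 0.25 (SD, n = 3), a difference of 1.14 (SE 0.29), or 2.20-fold, which did not pass by limma (adjusted p = 0.241).

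Esam, an adhesion molecule of endothelial tight junctions, had the smallest SE of the 5 genes without overlap. Its values were 6.90, 7.16 and 6.71 in wild type and 7.55, 7.41 and 7.88 in mutant cells, again with no overlap. The difference was 0.69 (SE 0.18), or 1.62-fold, with an adjusted p of 0.241 by limma.

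Megakaryocytes and platelets also carry Pecam1 and Esam, and markers of that lineage were uneven. The mean over the 6 measured of 8 such genes was 5.66 to 5.68 on wild-type and 5.94 to 6.41 on mutant arrays. Only a pair of platelet chemokines among them had groups that did not overlap. Pf4 read 6.98, 7.88 and 7.28 in wild type and 9.94, 8.47 and 10.24 in mutant cells, and Ppbp, at or below background on 5 of the 6 arrays, 3.36, 3.09 and 3.37 against 5.46, 4.23 and 4.79. The platelet integrin Itga2b stood at −0.24 and the glycoprotein subunits Gp9 and Gp1bb at 0.017 and −0.026, while Gp6 lay at or below background on every array. Of the 6 genes 3 were higher, with a median difference of −0.0043. None passed, and their part in the values of Pecam1 and Esam was not tested.

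Cdh5, the cadherin of endothelial adherens junctions, was represented by 2 probe sets. The brighter read 8.63, 8.24 and 7.70 in wild type and 8.69, 8.99 and 8.69 in mutant cells. The groups were separated by only a narrow margin, between wild-type array 1 and mutant array 3. The difference was 0.60 (SE 0.24; adjusted p = 0.398 by limma). The dimmer probe set read 7.40, 7.75 and 6.40 against 7.70, 7.54 and 7.70, with overlap and a difference of 0.46 (SE 0.32). Most of the distance there came from the low value of wild-type array 3.

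Cldn5, the main claudin of endothelial tight junctions, had groups that overlapped. It read 7.94, 8.08 and 7.81 in wild type and 7.81, 8.36 and 7.90 in mutant cells. Mutant array 2 alone stood above the wild-type arrays, and mutant array 1 matched the lowest of them. The difference was 0.081, with a 95% interval from −0.33 to 0.49. The interval overlaps that of Cdh5 (0.049 to 1.15), and the difference between these genes was not tested.

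Of the paired receptors Tie1 and Tek, Tie1 had groups that did not overlap and those of Tek overlapped. Tie1 read 6.99, 7.01 and 6.58 in wild type and 7.10, 7.56 and 8.05 in mutant cells, without overlap, although mutant array 1 stood only just above the wild-type arrays. Its difference was 0.71 (SE 0.25), or 1.64-fold (adjusted p = 0.363 by limma). Without mutant replicate 3 it was 0.47.

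Tek read 9.17, 9.19 and 8.22 in wild type and 8.68, 9.21 and 8.85 in mutant cells. Mutant array 2 lay just above the wild-type range and the other mutant arrays within it, and wild-type array 3 was the lowest of all 6. The difference was 0.052, with a 95% interval from −0.61 to 0.72. That interval includes the difference found for Tie1. Whether Tie1 and Tek, read on the same arrays, differ in response was not tested.

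Robo4 was the dimmest of the 10. Its wild-type values were 4.27, 4.96 and 4.18, of which those of arrays 1 and 3 lay at or below background, and its mutant values 5.84, 5.77 and 5.08, all above it. The groups did not overlap, although mutant array 3 was close to wild-type array 2. The wild-type mean, 4.47, was itself below background, and the difference as read was 1.09 (SE 0.28; adjusted p = 0.238 by limma). With wild-type arrays 1 and 3 set to the background level, the difference of the means was 0.68, or 1.60-fold. This step was added after the values were seen and is given without an interval or a test.

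Robo4 and Esam are neighbours on mouse chromosome 9, with 2 protein-coding genes between them in RefSeq's annotation. No other pair of the 10 genes lies as close: Egfl7 and Eng share chromosome 2 with 123 such genes between them, and Tek and Tie1 share chromosome 4 with 213.

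Eng, the TGF-β family coreceptor, gave the smallest difference. Its brighter probe set read 7.17, 7.36 and 6.98 in wild type and 7.19, 7.28 and 7.19 in mutant cells, so the mutant values lay inside the wild-type range. The difference was 0.045, with a 95% interval from −0.27 to 0.37. A further Eng probe set read 6.68, 6.71 and 7.03 against 7.33, 6.90 and 7.08, a difference of 0.29 (SE 0.17) with overlap. It was 1 of 2 among the 15 probe sets in which wild-type array 3 was not the lowest wild-type array.

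Emcn, a surface mucin of venous and capillary endothelium, read 7.99, 8.79 and 7.64 in wild type and 8.12, 8.37 and 8.34 in mutant cells. Wild-type array 2 was the highest of all 6 arrays, and the wild-type arrays spread widely around the mutant ones. The difference was 0.14, with a 95% interval from −0.52 to 0.79, which includes the differences of Tie1 and Esam.

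Egfl7, secreted by endothelial cells, was covered by 4 probe sets, all higher in mutant cells, by 0.40 to 0.67. The brightest read 8.50, 8.66 and 8.02 in wild type and 8.64, 8.94 and 8.90 in mutant cells. Mutant array 1 lay just below wild-type array 2, so the groups overlapped. The difference was 0.43 (SE 0.19; adjusted p = 0.445 by limma). Of the other probe sets, a pair with differences of 0.65 and 0.40 had groups that did not overlap, and that with 0.67 had groups that did.

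Over the 15 probe sets, tested among all 34945, limma called none, where 8 (0.0229%) were called higher in all. At an unadjusted p under 0.05 there were 6 of the 15, all higher, and 6.51% of all single-gene probe sets were higher at that level. All 15 had higher means in mutant cells, with a median of 0.46, and groups did not overlap for 7 of the 15 against 8.45% of all single-gene probe sets.

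**Figure D2:**
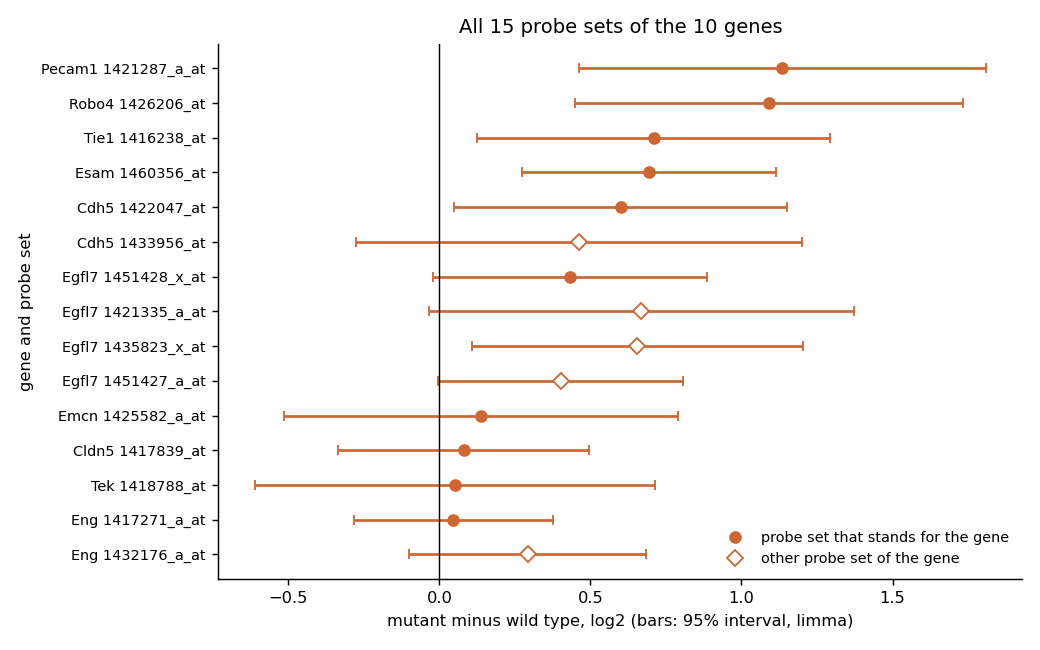
Log2 difference, mutant minus wild type (x axis), for each of the 15 probe sets (y axis), with the 95% interval of the limma fit; filled circles mark the probe set that stands for its gene. Intervals of Pecam1, Robo4, Tie1, Esam, the brighter Cdh5 and 1 Egfl7 probe set lie above 0 before adjustment, and the others include it.

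Wild-type array 3 set much of the spread. It was the lowest wild-type array for all 10 genes and the lowest of all 6 arrays for 9 of them; Cldn5 was the exception, by a small margin. Averaged over the 10 genes, the deviation from their wild-type mean was 0.067, 0.30 and −0.37 for wild-type replicates 1, 2 and 3. For the mutant replicates it was 0.37, 0.64 and 0.49. Wild-type array 2 was the highest of its group for 9 genes, and mutant array 2 of its group for 7. The mean of the 10 genes on mutant array 1 thus lay close to that on wild-type array 2.

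**Figure D3:**
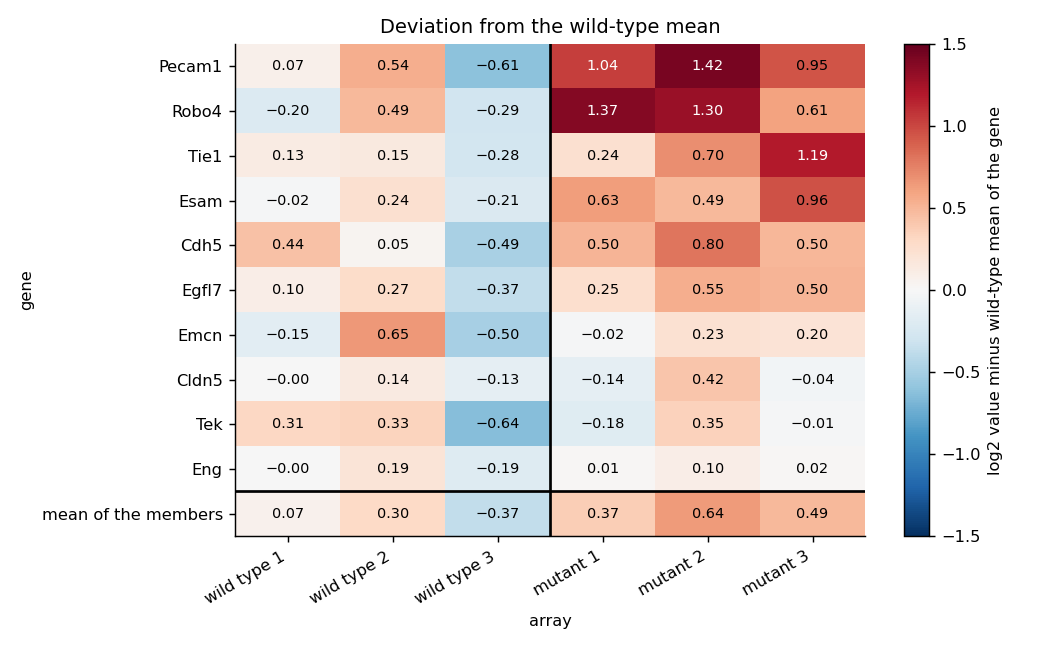
Each cell gives a gene's log2 value on an array (columns) minus that gene's wild-type mean; the bottom row is the mean of the 10 genes. The column of wild-type array 3 is below 0 throughout, and the mutant columns run from −0.18 for Tek on mutant array 1 to 1.42 for Pecam1 on mutant array 2.

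Leaving out single arrays moved the genes unequally. Without wild-type replicate 3, the median of the 10 differences was 0.30 in place of 0.52, and 7 of the 10 genes remained above 0. Cdh5 then stood at 0.36 and Egfl7 at 0.24, while Tek (−0.27), Emcn (−0.11) and Eng (−0.049) were below 0. Pecam1 (0.83), Robo4 (0.95), Esam (0.59) and Tie1 (0.57) kept more of their difference. Without mutant replicate 2, Tek (−0.098) and Cldn5 (−0.087) were below 0. The groups of Pecam1, Robo4, Tie1, Esam and Cdh5 did not overlap whichever array was left out, which follows from their separation over all arrays. Without wild-type replicate 2 that count was 8 genes, with Egfl7, Emcn and Eng added, and 12.8% of all genes had such groups in that fit. With the Y-linked mean as a covariate the median was 0.29 and Cdh5 stood at 0.21, whereas Pecam1 stood at 1.05 and Robo4 at 1.25. No gene of the 10 passed in any of these fits.

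**Figure D4:**
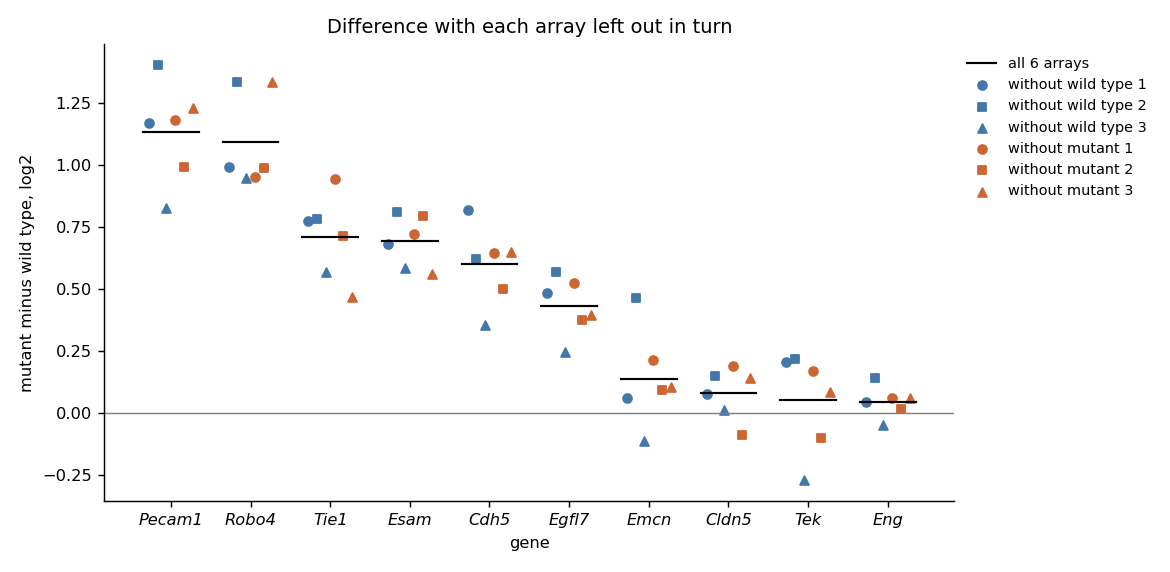
Mutant minus wild type (log2, y axis) for each gene (x axis) with 1 array left out in turn; the black line is the value with all 6 arrays. Pecam1 runs from 0.83 to 1.41 and Tek from −0.27 to 0.22, and the triangle for wild-type replicate 3 is the lowest point for Pecam1, Robo4, Cdh5, Egfl7, Emcn, Tek and Eng.

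Other genes of endothelial cells were read from a list of 33 further surface and junction genes, all measured. Of these, 28 had higher means in mutant cells, with a median of 0.31, 0 passed in either direction, and groups did not overlap for 3, all higher, a share close to the 8.64% of all genes. Those 3 had the smallest p of the list. Flt1, a VEGF receptor, read 7.63, 7.55 and 7.04 in wild type and 8.36, 9.62 and 9.22 in mutant cells, a difference of 1.66 (SE 0.32). Ptprm, a receptor phosphatase at cell contacts, stood at 0.94 (SE 0.19), and Vwf (von Willebrand factor) at 0.85 (SE 0.25).

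The mean of the 33 genes showed the same order of wild-type arrays as the 10, at 0.032, 0.24 and −0.28 relative to the wild-type mean, with 0.17, 0.46 and 0.45 on the mutant arrays. Mutant array 1 lay below wild-type array 2 on this measure. The 10 genes were then expressed relative to this mean on the same array, a step added after the values were seen and given without a test. Pecam1 remained higher, at 0.041, 0.30 and −0.34 in wild type and 0.87, 0.97 and 0.50 in mutant cells. Eng, by its brighter probe set, was lower without overlap, at −0.032, −0.056 and 0.088 against −0.16, −0.35 and −0.43. Its other probe set, at a difference of 0.29 as deposited, was not put through this step. The other 8 genes overlapped between groups, from Robo4 at a difference of 0.74 to Tek at −0.31. These relative values describe unequal change among endothelial genes and do not show that any one was constant.

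The transcription factors of endothelium leaned the same way less evenly. Of 22 measured, 16 were higher and 0 passed, with a median of 0.29, and groups did not overlap for 7 higher and 2 lower, where 8.64% and 9.18% of all genes did so; the lower count is near that share. The smallest p belonged to Sox17 (1.80, SE 0.31), Sox18 (1.14, SE 0.25) and Ets2 (0.54, SE 0.14). The 2 that were lower without overlap were Etv2 (−0.75, SE 0.24) and Klf2 (−0.64, SE 0.21). Tal1 (−0.94, SE 0.35) and Heyl (−0.94, SE 0.39) were lower with overlap. Sox17 and Sox18 are SoxF factors of endothelial differentiation, and Sox17 also marks endoderm. Sox17 read 6.41, 6.83 and 5.66 in wild type and 7.69, 8.25 and 8.38 in mutant cells, so wild-type array 3 was again lowest.

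Ligands and signalling partners of the 10 proteins were mixed. Of 16 measured, 9 were higher and 0 passed, with a median of 0.12, and groups did not overlap for 3 higher and 1 lower, beside 8.64% and 9.18% of all genes. Tgfbr2, the type II TGF-β receptor that acts with endoglin, read 6.32, 6.74 and 6.85 in wild type and 7.72, 7.51 and 7.32 in mutant cells, a difference of 0.88 (SE 0.18). The endothelial type I receptor Acvrl1 stood at 0.56 (SE 0.22), and Angpt2, an angiopoietin that binds Tek, at −0.50 (SE 0.25), both with overlap. Acvrl1 and the phosphatase Ptprb are also among the 33 genes above.

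Of 18 cytoplasmic and epithelial junction partners 17 were measured, 14 were higher and 0 passed, with a median of 0.31 and no overlap for 4, all higher, beside 8.64% of all genes. The smallest p belonged to the tight junction proteins Ocln (0.95, SE 0.26), Magi1 (0.43, SE 0.13) and Cgn (0.56, SE 0.20). Ctnnb1, the β-catenin that binds Cdh5, stood at −0.0023. Ocln and Cgn are also made by epithelium. All 8 epithelial markers had higher means in mutant cells, none passed, and groups did not overlap for 3. Their mean was 8.59 to 9.28 on wild-type and 9.29 to 10.18 on mutant arrays. Cdh1, Cldn6 and Cldn7 are on both this list and that of the junction partners. Cldn7 is counted as without overlap in each, so the lists are not separate readings. The part of epithelial cells in the junction values was not tested.

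**Figure D5:**
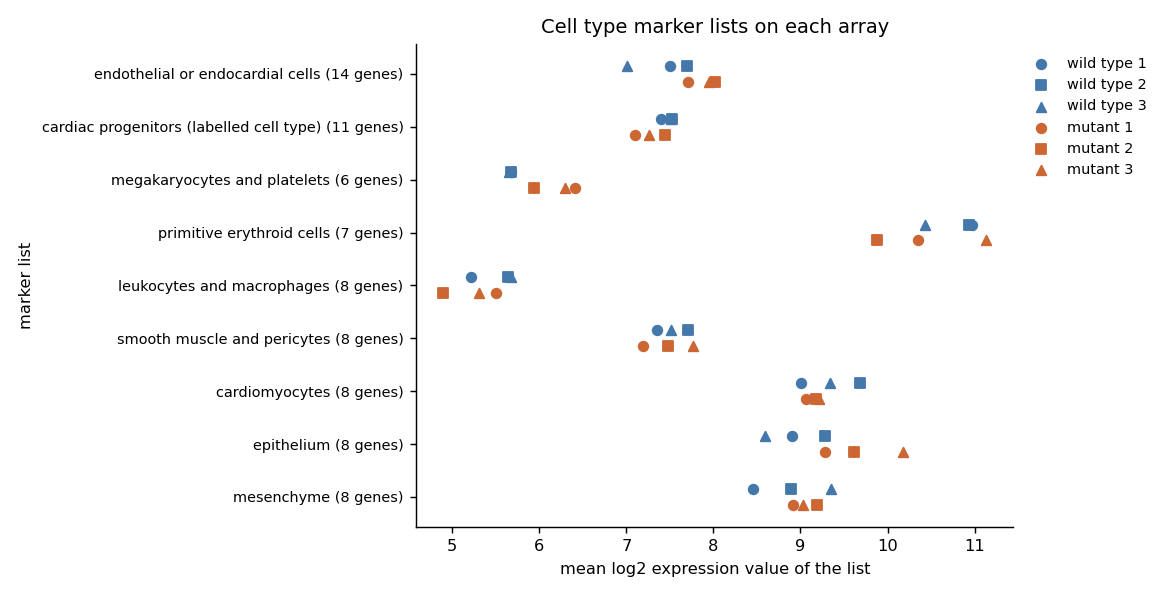
Mean log2 expression value (x axis) of each cell type marker list (y axis) on each array, wild type in blue and mutant in orange. The means of the 14 endothelial markers reach at most 7.69 in wild type and lie at 7.71 to 8.02 in mutant cells. As 10 of them are the genes described here, this is no separate support for those genes. Outside the 10, Flt1 had groups that did not overlap. Those of Kdr, Icam2 and Nfatc1 overlapped, with Nfatc1 lower in mutant cells. The means of the platelet list, 3 of whose 6 genes are higher, and of the epithelial list also do not overlap. The other 6 lists overlap.

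The means of the remaining marker lists overlapped between groups, although single markers in some lists did not. Groups did not overlap for 1 higher and 3 lower cardiac progenitor markers and 2 higher and 2 lower smooth muscle markers. The counts were 1 higher and 1 lower for cardiomyocytes and 0 higher and 3 lower for leukocytes. Over all genes the shares were 8.64% higher and 9.18% lower. The higher cardiac progenitor marker, Foxc2, is also counted among the endothelial transcription factors above, and Mef2c is on both lists. Primitive erythroid markers lay between 10.43 and 10.97 on wild-type and 9.88 and 11.13 on mutant arrays, and leukocyte markers between 5.22 and 5.68 and between 4.90 and 5.51. Of the 8 leukocyte markers, 6 had means above background, such as Coro1a at 7.19 in wild type and 6.72 in mutant cells, and Ptprc and Adgre1 lay at or below background on every array. Smooth muscle and pericyte markers ran from 7.36 to 7.70 and from 7.19 to 7.76, and mesenchymal markers from 8.45 to 9.35 and from 8.92 to 9.19. Cardiomyocyte markers lay at 9.06 to 9.21 on mutant arrays, within the wild-type range. The cardiac progenitor markers of the labelled cell type ran from 7.40 to 7.53 in wild type and from 7.10 to 7.44 in mutant cells. Higher means in mutant cells were found for 0 of 7 erythroid, 2 of 8 leukocyte and 2 of 8 cardiomyocyte markers. For smooth muscle and mesenchyme it was 4 of 8 each, and for cardiac progenitors 5 of 11, beside 44.7% of all genes.

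Promoter sequence was available from RefSeq (build GRCm38.p6) for 7 of the 10 genes, with 9 start sites; Pecam1, Cdh5 and Esam had no entry. The 250 bases before the start are shown for Robo4 and Tie1, whose groups did not overlap, and for Tek, whose groups did, 5′ to 3′ on the gene's strand. Capitals mark letters that ETS factors, central to endothelial gene expression, can bind (CCGGAA or CAGGAA, on either strand).
Robo4, chr9:37401722-37401971, plus strand: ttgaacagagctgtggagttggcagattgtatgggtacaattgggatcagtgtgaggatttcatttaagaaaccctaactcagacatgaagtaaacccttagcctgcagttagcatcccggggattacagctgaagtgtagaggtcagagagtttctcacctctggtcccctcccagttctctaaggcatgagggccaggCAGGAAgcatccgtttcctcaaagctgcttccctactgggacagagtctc
Tie1, chr4:118489850-118490099, minus strand: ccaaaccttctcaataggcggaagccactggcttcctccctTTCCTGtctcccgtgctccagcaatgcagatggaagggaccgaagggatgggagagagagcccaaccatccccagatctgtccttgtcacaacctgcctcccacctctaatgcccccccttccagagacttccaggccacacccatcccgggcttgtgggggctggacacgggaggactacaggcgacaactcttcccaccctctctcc
Tek, chr4:94739039-94739288, plus strand: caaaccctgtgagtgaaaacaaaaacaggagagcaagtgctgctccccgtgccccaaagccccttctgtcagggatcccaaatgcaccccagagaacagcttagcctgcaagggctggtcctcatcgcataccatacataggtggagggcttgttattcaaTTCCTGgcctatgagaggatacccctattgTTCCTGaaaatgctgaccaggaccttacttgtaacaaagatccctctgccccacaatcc

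An ETS match was present in 6 of the 9 promoters, those of Egfl7 (2 of its 3 starts), Emcn, Robo4, Tek and Tie1, and in 35.1% of all 32851 promoters of the same length. The match begins 50 bases before the start in Robo4, 209 in Tie1, and 89 and 59 in Tek. Genes whose groups overlapped and genes whose groups did not thus both held it. SOX matches (ACAAT or ACAAAG) were in 5 of the 9 promoters and 38.8% of all. TCF/LEF matches, the letters bound by the partners of β-catenin (CTTTGAA or CTTTGAT or CTTTGTA or CTTTGTT), were in 3 of the 9, belonging to Egfl7 and Tek, and in 14.8% of all. The Tek match and 1 of the Egfl7 matches overlap a SOX match. HIF matches (ACGTGC or GCGTGC) were in 0 of the 9 and in 13.6% of all. These are matches of letters in short windows and were not tested against the expression values.

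Finally, the genes whose 6 values followed the mean of the 10 most closely were Apbb3, Dennd4b, Map4k5, Prpf40b and Rreb1, with Pearson correlations of 0.981 to 0.986 over the 6 arrays. Of 18183 other genes, 157 had a correlation over 0.9. The 6 points share the same libraries and include the difference between groups, so these correlations are a description.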

How the data were processed

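Sorted embryonic cells were profiled on 6 arrays. Per the labels' protocols, RNA was extracted with Trizol, amplified (WT-Ovation Pico), labelled with biotin and hybridised to Affymetrix arrays. The deposited table holds log2 expression values of 45101 probe sets on each array. The log2 base was read from their range (1.89 to 15.07). How the authors corrected background and normalized is not given in the sources used here. Since the sorted values of the arrays nearly coincide, a shift of most genes one way may have been removed before deposit. No scan date or other batch is given.

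Of 34945 probe sets naming 1 gene in GEO's platform annotation, 34741 had symbols updated from RefSeq by gene identifier. The probe set with the highest mean over the 6 arrays stood for each of 18193 genes. The groups were compared by a two-sided limma test (version 3.58.1, R 4.3.3) with group alone in the model, and p-values were adjusted after Benjamini-Hochberg over every gene, with 0.05 as the threshold. A second fit used all single-gene probe sets. With 3 arrays in each group, an exact permutation test reaches 0.1 at best. The fit was tested on simulated data. The background level, 4.85, is the 95th percentile among 27 bacterial control probe sets, each averaged over the arrays.

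The genes and lists were chosen with earlier results of these data known. Named are all 10 genes, the 3 genes of each related list with the smallest p, marker genes set beside a result, and the 5 genes most like the mean of the 10. Some endothelial transcription factors with lower means in mutant cells are named as well. The alternatives tried were a block for replicate number, quantile normalization, median centring, leaving out the dimmest 40% of genes, other choices of probe set, a trended robust prior, array weights, a Y-linked covariate, a stricter threshold of 0.01, and each array left out in turn; values relative to other endothelial genes and a floor at background for Robo4 were added after seeing the data. No pseudocount was needed.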

Additional observations from a re-analysis of the deposited data

How the results depend on the processing

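None of the 10 genes and none of their 15 probe sets passed the limma test under any alternative, and Pecam1, Robo4, Tie1, Esam, Cdh5 and Egfl7 kept a higher mutant mean in each one run (Robo4 was not tested without the dimmest 40% of genes). Some differences near 0 changed sign. Tek was −0.24 with the Y-linked covariate. With 1 array left out, Tek ranged from −0.27 (wild-type replicate 3 out) to 0.22, and was −0.098 with mutant replicate 2 out. Emcn ranged from −0.11 to 0.46 and Eng from −0.049 to 0.14, both lowest with wild-type replicate 3 out, and Cldn5 from −0.087 (mutant replicate 2 out) to 0.19. Relative to the other endothelial genes, Tek was −0.31, Emcn −0.22, Cldn5 −0.28 and Eng −0.31. With the replicate number as a block, which leaves every difference unchanged by construction, 0 genes were called higher. The SE was then smaller for Pecam1 (0.18) and Robo4 (0.20), among others, and larger for Esam (0.21), Tie1 (0.27) and Eng (0.145). Deviations of same-numbered arrays correlated at 0.11, −0.075 and −0.016, and wild-type array 2 correlated best with mutant array 3 (0.15). Deviations from means of 3 arrays cannot settle whether the numbers pair the arrays. The number of all genes called higher, 12, was 6 with median centring, 1 with the mean of probe sets, 1 with the most variable probe set, 1 with the Y-linked covariate and 0 at a threshold of 0.01; the causes were not tested. Leaving out 1 array, it ranged from 0 to 81, genes called lower from 0 to 11, the 10 genes without overlap from 5 to 8 (12.1% to 14.9% of all genes), and their median difference from 0.30 to 0.60. Without the dimmest 40% of genes, which took out Robo4, the mutant arrays were higher without overlap for 4 of the genes described here. Of all genes kept, 11.4% had such groups. Dim signal limits Robo4, whose difference was 0.68 with the background level as a floor.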
